A study of Rattus norvegicus with 11 samples.

Results

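Splicing factors and heterogeneous ribonucleoproteins (hnRNPs) were followed in the rat hippocampus on a control diet and on a ketogenic diet, a high-fat, low-carbohydrate diet used against epileptic seizures. The members were all probe sets whose single gene symbol in the platform annotation starts with Hnrnp, Hnrp, Srsf, Sfrs, Snrp, Sf3 or Prpf: 69 probe sets of 49 genes, among 15923 probe sets and 10412 named genes on the array. The rule uses symbols and no measured value, although the group was taken up with earlier results of these data known. Total RNA of the hippocampus was hybridised to 11 Affymetrix arrays, 6 from the control diet and 5 from the ketogenic diet. The labels give no strain, age, sex, diet composition, time on the diet or genotype, and no treatment other than the diet. They do not say that each array is a separate animal, so the p-values measure the spread between these arrays, which may in part be technical. Scan or extraction dates were not given in the sources used here, so a batch and the diet cannot be told apart. The array of ketogenic replicate 3 has a title whose suffix differs from that of the other 10 arrays; what the suffix stands for is not stated.

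Pre-mRNA splicing removes introns in the spliceosome, which is built on the intron from small nuclear ribonucleoproteins (snRNPs), each a small nuclear RNA in a ring of Sm or Lsm proteins with its own partner proteins. The SF3A and SF3B complexes of the U2 snRNP hold the branch site, and the PRPF proteins belong mainly to the U4/U6.U5 tri-snRNP and to complexes that activate the spliceosome or lie at its catalytic centre. SR proteins mostly favour the inclusion of exons and hnRNPs often oppose it, and in neurons the balance between them shapes the isoforms of channels, receptors and cytoskeletal proteins.

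The values below are log2 signals after quantile normalisation of the deposited intensities, and a difference is the ketogenic mean minus the control mean on that scale. A probe set is called here when limma's moderated test, adjusted by Benjamini-Hochberg over all 11899 tested probe sets, gave an adjusted p under 0.05. Probe sets in the lowest 25% by mean signal were not tested, and 63 of the 69 member probe sets, of 48 genes, were. Probes differ in how well they bind, so a higher signal on one probe set than on another does not show more transcript; the highest mean in a role is named below only as the rule by which that member was picked for description.

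Of the 63 tested member probe sets, 11 were called, or 17.5%, against 16.5% of all tested probe sets. The share that changed was therefore close to that of the whole array. The direction was uneven: 10 members rose (15.9%, against 8.62% of all) and 1 fell (1.59%, against 7.87% of all). The 10 that rose were Snrpd2, Prpf3, Snrpd3, Srsf9, Hnrnpd, Hnrnpa1, Hnrnpu, Srsf1, Hnrnpl and Srsf2, each on 1 probe set, and the 1 that fell was a probe set of Hnrnpdl. Their differences lay between 0.19 and 0.72 in size, so none reached 2-fold. The members as a whole moved little: their median difference was 0.05, against -0.00 over all tested probe sets, and 35 of 63 were positive (55.6%, against 49.2% of all). In 4 members every ketogenic array lay above every control array, namely Hnrnpl, Hnrnpu, Snrpd3 and Srsf2; in 0 members every ketogenic array lay below, and the shares over all tested probe sets were 3.91% and 3.08%. With each gene taken by its tested probe set of the highest mean, 9 of 48 genes rose and 0 fell, against 8.85% and 8.04% of 8397 genes. A further 8 members had an adjusted p between 0.0530 and 0.0951, and all 8 had a positive difference. At an adjusted p under 0.1, 30.2% of the tested members and 25.8% of all tested probe sets were called, and 51.3% of all calls were upward. The call counts moved with single arrays, for the members much as for the whole array: 5 members rose without control replicate 2, 6 without control replicate 4, 6 without control replicate 5, 5 without ketogenic replicate 1, 5 without ketogenic replicate 2, 3 without ketogenic replicate 4 and 16 without ketogenic replicate 3. In either direction, 6.35% of the tested members and 6.70% of all tested probe sets were called without ketogenic replicate 4. The shares were 9.52% and 9.87% without control replicate 2, and 27.0% and 26.6% without ketogenic replicate 3.

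**Figure D1:**
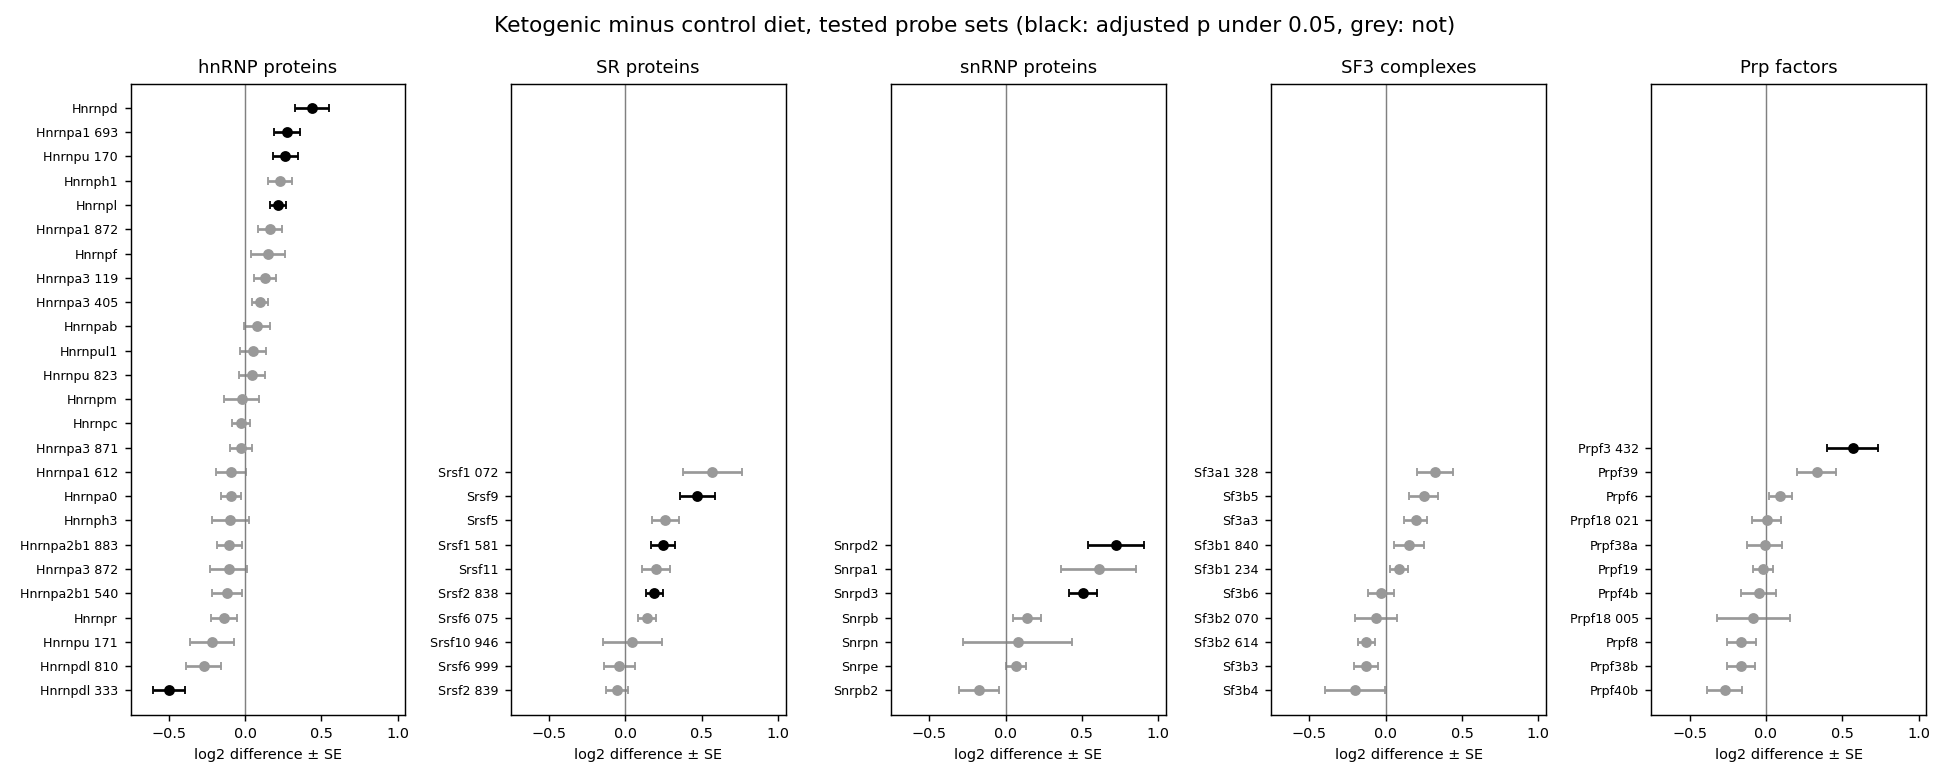
Difference between ketogenic and control diet (log2, horizontal axis, with its standard error as a bar) for each of the 63 tested member probe sets (vertical axis), grouped by role. Black points are the 11 called probe sets, 10 to the right of 0 and 1 to the left; grey points are the 52 others, and a gene with several probe sets carries the last 3 digits of each ID.

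Several array measures moved with the diet. The median deposited signal was 89.2 to 94.2 in the control arrays and 79.9 to 87.9 in the ketogenic arrays, with no overlap. The log2 ratio of the 3 prime to the 5 prime control probe set of Gapdh, which rises as RNA or its labelled copy gets shorter, was -0.09 to 0.11 on the control diet and 0.16 to 0.38 on the ketogenic diet (two-sided exact permutation p = 0.00216, the smallest this design allows; adjusted over 6 array measures, 0.00433). The same ratio of actin was 0.47 to 0.79 and 0.69 to 1.01 (exact permutation p = 0.0325; adjusted 0.0390). When both ratios entered the fit as covariates, 0 of 63 members and 6 of all 11899 probe sets (0.0504%) were called. In that fit 4 of the 63 members had an unadjusted p under 0.05, where chance alone would give about 1 in 20. The Gapdh ratio does not overlap between the diets, so what moves with it and what moves with the diet cannot be told apart. The hybridisation controls, bacterial transcripts added before hybridisation, were at 8.23 to 8.54 and 8.53 to 8.84 (exact permutation p = 0.00649; adjusted 0.00974). With their mean as a covariate 1 member, Snrpd2, rose and 1, Hnrnpdl, fell, while 6.48% of all probe sets were called. The summed signal of 4 blood cell markers was 1168 to 1623 on the control diet and 295 to 385 on the ketogenic diet, and all 4 fell. That of 5 choroid plexus markers was 551 to 2034 and 390 to 736, with 3 called lower and 0 higher. The 8 neuronal markers summed to 8643 to 9302 and 8949 to 10490, with 1 called higher and 0 lower, so neuronal transcripts were measured in every array. Only 3 of the 8 had a positive difference, and their median was -0.01. The 1 called was Camk2a, at 1.34 on the probe set used and 0.16 and 0.23 on its others. Among 8 astrocyte, 8 oligodendrocyte, 6 microglia, 5 endothelial and 7 meningeal markers, 2, 1, 2, 1 and 1 were called lower, and 1 microglia marker was called higher. In such bulk tissue fewer cells of a type and less RNA per cell cannot be told apart, and the part of cell makeup in the splicing results was not tested.

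The snRNP proteins held both the largest difference and the smallest adjusted p among the 63 tested probe sets of members. Of 7 tested probe sets, 2 rose (28.6%, against 8.62% of all tested probe sets) and 0 fell (against 7.87% of all), and the median difference was 0.14. Both were Sm proteins, parts of the ring that encircles the U1, U2, U4 and U5 small nuclear RNAs. Snrpd3, which encodes Sm D3, was 7.46 to 7.85 (median 7.63) on the control diet and 8.18, 8.14, 7.92, 8.33 and 8.16 in ketogenic replicates 1 to 5. Every ketogenic array lay above every control array, and ketogenic replicate 3 was the lowest of them. The difference was 0.51 ± 0.09 (SE), or 1.42-fold (adjusted p = 0.00549), the smallest adjusted p among the tested members. The call held with each array left out in turn. Snrpd2, which encodes Sm D2, was 6.70 to 7.89 (median 7.36) on the control diet and 8.14, 8.37, 7.50, 8.17 and 8.26 on the ketogenic diet. Here 4 ketogenic arrays lay above all controls, and ketogenic replicate 3 lay inside the control range. Its difference of 0.72 ± 0.19 (SE), or 1.65-fold (adjusted p = 0.0206), was the largest among the tested members. The call was lost without ketogenic replicate 2 or 4 (difference 0.65 to 0.70, adjusted p = 0.0541 to 0.0588). In the fit with the 3 prime to 5 prime covariates, the difference of Snrpd2 was -0.10, of the opposite sign, while that of Snrpd3 was 0.21.

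The other snRNP members were not called. Snrpe, which encodes Sm E and had the highest mean signal of the snRNP members, was 8.36 to 8.66 (median 8.60) on the control diet and 8.60, 8.64, 8.54, 8.68 and 8.77 on the ketogenic diet, a difference of 0.07 ± 0.07 (SE) (adjusted p = 0.505). The lowest 3 ketogenic arrays lay inside the control range. Snrpa1, a protein of the U2 snRNP, was 4.70 to 6.08 (median 5.05) and 5.69, 6.17, 5.31, 5.79 and 6.13. Its difference of 0.61 ± 0.24 (SE) was as large as those of called members, but its arrays spread widely (adjusted p = 0.0951). Snrpb and Snrpn, which encode the closely related Sm B and Sm N, and Snrpb2, a second U2 snRNP protein, had differences of 0.14, 0.08 and -0.18. Snrpa, the U1 protein A, was too low to be tested, at 3.60 to 5.31 (median 3.81) and 4.13, 5.76, 5.14, 5.77 and 4.68.

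The 250 bases upstream of the start of Snrpd2 and Snrpd3 are printed here because these genes had the largest difference and the smallest adjusted p of the tested members. They are from RefSeq on the rat assembly GRCr8, 5′ to 3′ on the gene's own strand, at chr1:87926159-87926408 on the plus strand and at chr20:13144921-13145170 on the minus strand. Capitals mark matches on either strand to 5 short motifs: CCGGAAG, called an ETS-type site here; CCAAT, the letters of the CCAAT box; TATAAA, those of a TATA box; GGGCGG, those of a GC box; and TGACGT, called a CRE-type site here for the cyclic AMP response element.
Snrpd2: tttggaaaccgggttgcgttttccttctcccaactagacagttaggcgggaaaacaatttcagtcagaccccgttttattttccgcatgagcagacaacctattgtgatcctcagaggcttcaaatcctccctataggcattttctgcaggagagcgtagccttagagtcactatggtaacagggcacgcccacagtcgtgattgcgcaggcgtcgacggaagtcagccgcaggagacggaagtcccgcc
Snrpd3: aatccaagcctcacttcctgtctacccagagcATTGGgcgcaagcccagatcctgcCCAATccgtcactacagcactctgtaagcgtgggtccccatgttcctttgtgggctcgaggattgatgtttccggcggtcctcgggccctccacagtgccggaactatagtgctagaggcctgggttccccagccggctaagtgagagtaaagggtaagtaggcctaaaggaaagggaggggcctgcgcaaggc
The Snrpd3 stretch held a CCAAT box on the reverse strand 218 bases before the start and one on the forward strand 194 bases before it, and the Snrpd2 stretch held none of the 5 motifs.

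SR proteins had the highest median of the 5 role groups, 0.20. Of 10 tested probe sets 3 rose (30%, against 8.62% of all tested probe sets) and 0 fell (against 7.87% of all). So few probe sets give only a rough share. Srsf9, a short SR protein that acts on splice site choice, was 6.47 to 6.77 (median 6.63) on the control diet and 7.37, 7.01, 6.72, 7.20 and 7.17 on the ketogenic diet. Ketogenic replicate 3 lay inside the control range and the other 4 lay above it. The difference was 0.47 ± 0.11 (SE), or 1.39-fold (adjusted p = 0.0152), and the call held with each array left out in turn. Srsf2, also known as SC35 and a marker of nuclear speckles, was 9.12 to 9.29 (median 9.22) and 9.45, 9.32, 9.39, 9.51 and 9.32 on probe set 1371838_at, the highest mean among the SR members. All 5 ketogenic arrays lay above all 6 controls, yet the difference was small, 0.19 ± 0.06 (SE) (adjusted p = 0.0355). The call was lost without any 1 of control replicates 1, 2, 3, 4 and 5 or any 1 of ketogenic replicates 1, 2 and 4 (difference 0.16 to 0.21, adjusted p = 0.0512 to 0.0996). Srsf1, the founding SR protein SF2/ASF, was 8.07 to 8.37 (median 8.21) and 8.46, 8.36, 8.28, 8.50 and 8.66 on probe set 1371581_at. Ketogenic replicates 2 and 3 lay inside the control range. The difference was 0.25 ± 0.08 (SE) (adjusted p = 0.0449), and the call was lost without any 1 of control replicates 1, 2, 3, 4 and 6 or any 1 of ketogenic replicates 1, 2, 4 and 5 (difference 0.20 to 0.27, adjusted p = 0.0568 to 0.112).

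On its other probe set, 1374072_at, Srsf1 was 5.88 to 6.92 (median 6.59) and 7.11, 7.21, 6.42, 7.43 and 6.98. This difference, 0.57 ± 0.19 (SE), was larger than on the called probe set but so was the spread (adjusted p = 0.0542). Srsf5, an SR protein known as SRp40, was 8.77 to 9.34 (median 9.02) and 9.51, 9.18, 9.21, 9.33 and 9.26. Ketogenic replicates 2, 3, 4 and 5 all lay inside the control range (0.26 ± 0.09 (SE); adjusted p = 0.0530). Srsf11, an SR-related protein, had a difference of 0.20. Srsf10, an SR protein that can repress splicing, had 1 tested probe set, with a difference of 0.05, and 2 that were too low to be tested. One of those, 1392868_at, was 2.40 to 4.87 (median 4.50) and 5.19, 4.79, 5.01, 4.72 and 5.08; the other, 1380269_at, was 2.33 to 4.75 (median 3.06) and 3.44, 2.55, 2.33, 3.21 and 4.19, with the lowest array of each group at the floor of 2.33. Those values lie near the lower end of what the arrays measure.

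The hnRNP group was mixed. Of its 25 tested probe sets, of 16 genes, 4 rose (16%, against 8.62% of all tested probe sets) and 1 fell (4%, against 7.87% of all). In the group 12 differences were positive and 13 negative, and the median was -0.02. Left at the deposited scale it was 0.04 and it was 0.07 after centring on the 75th percentile, so its sign depends on the scaling. The clearest contrast was between neighbouring genes of one pair. Hnrnpd, also called AUF1, binds AU-rich elements in mRNAs and takes part in their turnover. It was 7.62 to 8.03 (median 7.88) on the control diet and 8.50, 8.41, 7.85, 8.36 and 8.41 on the ketogenic diet. Ketogenic replicate 3 lay inside the control range and the other 4 lay well above it. The difference was 0.44 ± 0.11 (SE), or 1.36-fold (adjusted p = 0.0194); the call was lost without ketogenic replicate 2 or 4 (difference 0.41 to 0.42, adjusted p = 0.0522 to 0.0541). Hnrnpdl, the related gene whose protein also binds AU-rich RNA, fell on probe set 1371333_at. It was 8.52 to 8.92 (median 8.70) on the control diet and 8.28, 7.84, 8.55, 8.17 and 8.16 on the ketogenic diet. Again ketogenic replicate 3 alone lay inside the control range. The difference was -0.50 ± 0.11 (SE) (adjusted p = 0.00949), and the call held with each array left out in turn. On probe set 1372810_at Hnrnpdl was 8.73 to 9.48 (median 9.07) and 8.89, 8.84, 8.85, 8.76 and 8.71, a difference of -0.27 ± 0.11 (SE) of the same sign that was not called (adjusted p = 0.114) and was called only without control replicate 1.

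Hnrnpdl and Hnrnpd lie next to each other on chromosome 14, with 0 genes listed between them in the RefSeq table. Their upstream stretches are printed because the genes are neighbours, are related, and moved in opposite directions. That of Hnrnpd lies at chr14:9919507-9919756 on the plus strand and that of Hnrnpdl at chr14:9861466-9861715 on the plus strand in GRCr8. The same 5 motifs are in capitals.
Hnrnpd: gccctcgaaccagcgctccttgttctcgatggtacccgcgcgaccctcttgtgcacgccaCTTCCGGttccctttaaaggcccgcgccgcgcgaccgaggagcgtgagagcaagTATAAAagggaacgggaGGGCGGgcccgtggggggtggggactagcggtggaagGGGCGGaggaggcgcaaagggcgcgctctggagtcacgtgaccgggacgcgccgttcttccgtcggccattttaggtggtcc
Hnrnpdl: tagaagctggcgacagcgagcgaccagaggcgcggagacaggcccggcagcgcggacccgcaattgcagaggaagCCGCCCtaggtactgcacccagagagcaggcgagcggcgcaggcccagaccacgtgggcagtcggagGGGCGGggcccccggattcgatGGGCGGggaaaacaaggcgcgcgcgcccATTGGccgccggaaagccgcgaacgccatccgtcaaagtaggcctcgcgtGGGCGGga
The Hnrnpd stretch held an ETS-type site 190, a TATA box 136 and GC boxes 119 and 82 bases before the start. The Hnrnpdl stretch held a CCAAT box 58 bases before the start and GC boxes 175, 108, 86 and 8 bases before it. A match gives letters only, and no factor binding was measured.

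Of the other hnRNPs that rose, Hnrnpl, which binds CA repeats and regulates alternative exons, had the highest mean signal of the hnRNP members. It was 9.69 to 9.90 (median 9.76) on the control diet and 10.08, 10.04, 9.90, 10.01 and 9.95 on the ketogenic diet. All ketogenic arrays lay above all controls, though ketogenic replicate 3 lay above the highest control by less than 0.01. The difference was 0.22 ± 0.05 (SE) (adjusted p = 0.0178), and the call held with each array left out. Hnrnpu, a nuclear scaffold protein that binds RNA and chromatin, was 8.90 to 9.02 (median 8.99) and 9.52, 9.07, 9.03, 9.21 and 9.37 on probe set 1370170_at. Every ketogenic array lay above every control array, from just above in replicates 3 and 2 to far above in replicate 1. The difference was 0.26 ± 0.08 (SE) (adjusted p = 0.0394), and the call was lost without any 1 of control replicates 2, 3, 4, 5 and 6 or any 1 of ketogenic replicates 1, 4 and 5 (difference 0.19 to 0.27, adjusted p = 0.0592 to 0.0919). Hnrnpa1, a widely studied repressor of exon inclusion, was 7.43 to 7.74 (median 7.56) and 7.95, 7.74, 7.69, 7.92 and 7.94 on probe set 1372693_at. Ketogenic replicates 2 and 3 reached no higher than the highest control. The difference was 0.28 ± 0.08 (SE) (adjusted p = 0.0405), and the call was lost without any 1 of control replicates 2, 3, 5 and 6 or any 1 of ketogenic replicates 1, 2, 4 and 5 (difference 0.25 to 0.30, adjusted p = 0.0573 to 0.0992).

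Hnrnph1, which binds runs of G, was 8.89 to 9.27 (median 9.09) and 9.45, 9.09, 9.23, 9.37 and 9.33. Its difference of 0.23 ± 0.08 (SE) stayed short of the threshold (adjusted p = 0.0591). The hnRNPs with a single tested probe set and no call were Hnrnpa0, Hnrnpab, Hnrnpc, Hnrnpf, Hnrnph1, Hnrnph3, Hnrnpm, Hnrnpr and Hnrnpul1, with differences from -0.14 (Hnrnpr) to 0.23 (Hnrnph1). Hnrnpc, which binds uridine tracts, is an example of a small difference with a narrow interval. It was 9.20 to 9.43 (median 9.33) and 9.30, 9.32, 9.32, 9.21 and 9.34, a difference of -0.03 with a 95% interval of -0.15 to 0.09.

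**Figure D2:**
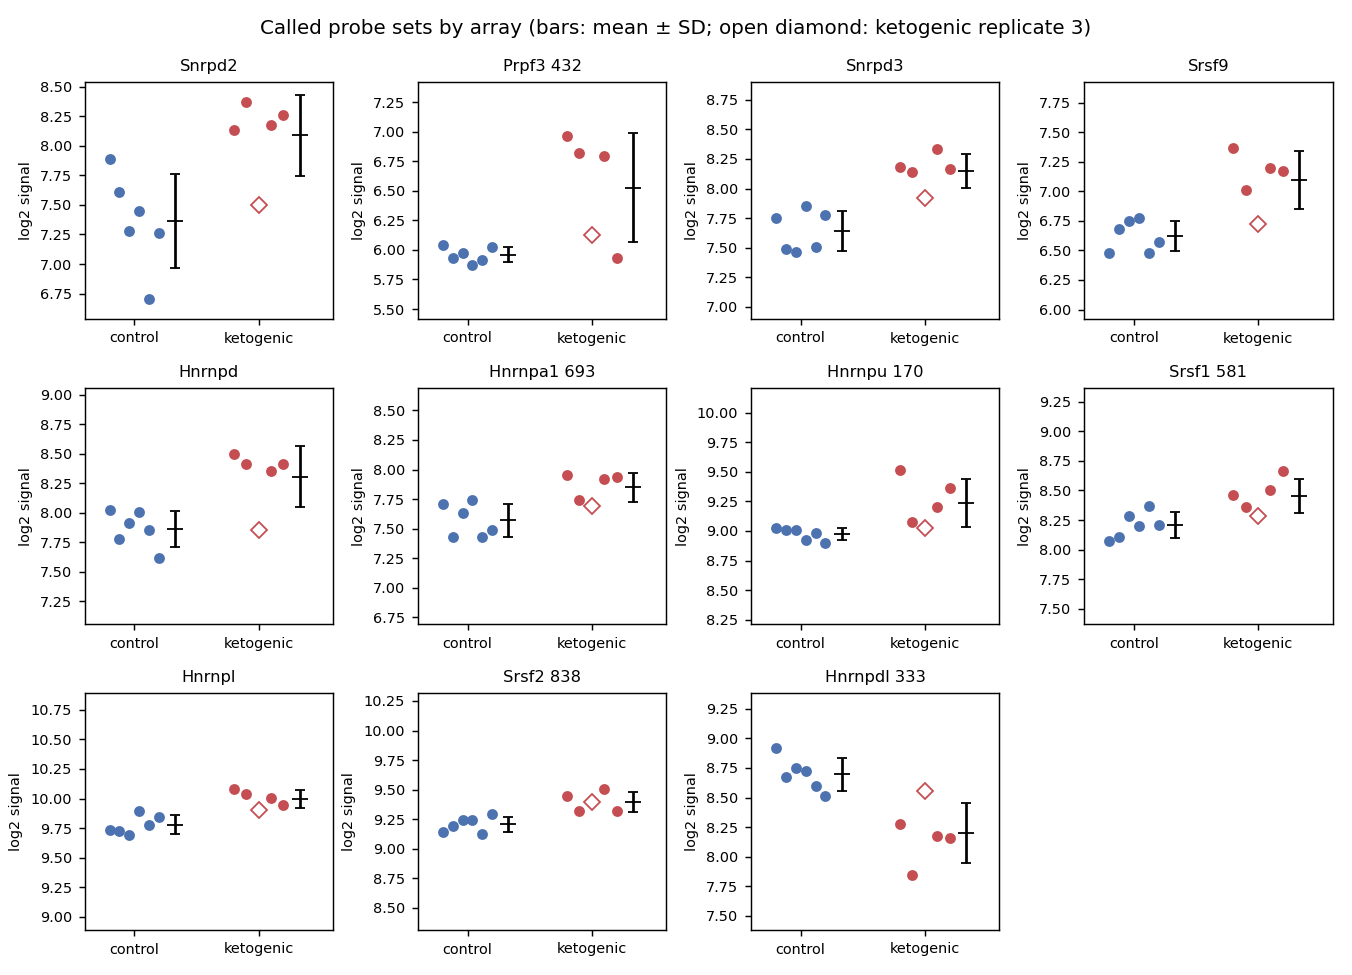
Log2 signal (vertical axis, each panel spanning 2 log2 units) of the 11 called member probe sets in the 6 control and 5 ketogenic arrays (points), with the mean and SD of each group as bars. The open diamond is ketogenic replicate 3, which lies nearest to the control mean among ketogenic arrays in 9 of the 11 panels.

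Of the 10 tested probe sets of SF3 members 0 were called by limma, against 16.5% of all tested probe sets. Of the 10, 4 had an unadjusted p under 0.05, of which 3 were higher and 1 lower on the ketogenic diet. Over all 63 tested members 24 did, and the share over the whole array is not given here. The 10 SF3 probe sets had a median difference of 0.03 and differences from -0.20 (Sf3b4) to 0.32 (Sf3a1). Sf3b2, an SF3B subunit that contacts RNA near the branch site, had the highest mean of these members on probe set 1388614_at. It was 8.92 to 9.05 (median 8.98) on the control diet and 8.94, 8.80, 8.90, 8.79 and 8.84 on the ketogenic diet, a difference of -0.13 ± 0.05 (SE) (adjusted p = 0.116). Ketogenic replicate 1 lay inside the control range and the other 4 below it. Sf3a1, a subunit of SF3A, was 5.90 to 6.44 (median 6.29) and 6.61, 6.32, 6.54, 6.65 and 6.67 on probe set 1389328_at, with 4 of 5 ketogenic arrays above all controls; the difference was 0.32 ± 0.12 (SE) (adjusted p = 0.0750). Its second probe set, 1374668_at, was too low to be tested, at 3.88 to 4.83 (median 4.05) and 5.21, 4.09, 5.67, 5.79 and 5.75. Sf3b1, the large subunit around the branch site, had 2 probe sets with differences of 0.16 and 0.09. The remaining differences were -0.06 for the second Sf3b2 probe set, 1377070_at, 0.20 for Sf3a3, -0.13 for Sf3b3, 0.25 for Sf3b5 and -0.03 for Sf3b6.

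Among the PRPF proteins 1 of 11 tested probe sets rose (9.09%, against 8.62% of all tested probe sets) and 0 fell (against 7.87% of all), with a median difference of -0.02. Prpf3, a protein of the U4/U6 snRNP, was 5.87 to 6.04 (median 5.95) on the control diet and 6.96, 6.82, 6.13, 6.80 and 5.93 on the ketogenic diet on probe set 1372432_at. Ketogenic replicates 1, 2 and 4 lay far above the controls, replicate 3 lay just above and replicate 5 lay inside their range. The difference was 0.57 ± 0.17 (SE), or 1.48-fold (adjusted p = 0.0355). This probe set was not called on the values as deposited or after centring on the 75th percentile, nor without any 1 of control replicates 2, 3, 4 and 5 or any 1 of ketogenic replicates 1, 2 and 4 (difference 0.46 to 0.57, adjusted p = 0.0587 to 0.0981). Its 2 other probe sets were too low to be tested: 1384404_at was 4.62 to 5.29 (median 4.90) and 4.21, 5.17, 5.78, 4.71 and 5.74, and 1393985_at was at the floor in all ketogenic arrays and at most 4.22 in the controls. Prpf8, the large U5 protein at the catalytic centre, had the highest mean of the PRPF members. It was 8.85 to 9.32 (median 8.98) and 8.71, 8.70, 9.14, 9.03 and 8.81, a difference of -0.16 ± 0.10 (SE) (adjusted p = 0.255), with overlapping groups. Prpf39, a protein associated with the U1 snRNP, was 6.65 to 7.13 (median 6.94) and 7.38, 7.21, 6.77, 7.44 and 7.47. In 4 of 5 ketogenic arrays it lay above all controls, and replicate 3 lay inside their range (0.33 ± 0.13 (SE); adjusted p = 0.0878). The remaining PRPF genes with 1 probe set were Prpf4b, a kinase, Prpf6, which bridges parts of the tri-snRNP, Prpf19, a ubiquitin ligase, and Prpf38a, Prpf38b and Prpf40b. Their differences ran from -0.27 (Prpf40b) to 0.09 (Prpf6), and 0 of them were called.

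For 11 genes more than 1 probe set was tested, so the probe sets of a gene can be set side by side. In 5 of them the differences shared a sign (Hnrnpa2b1, Hnrnpdl, Sf3b1, Sf3b2 and Srsf1) and in 6 they did not (Hnrnpa1, Hnrnpa3, Hnrnpu, Prpf18, Srsf2 and Srsf6). In 5 genes 1 probe set was called, and in 0 genes were 2 called. Hnrnpu is an example: beside the rise on 1370170_at, probe set 1370171_at was 8.71 to 9.43 (median 8.88) and 8.75, 8.43, 9.16, 8.68 and 8.94, a difference of -0.22 ± 0.14 (SE) (adjusted p = 0.309). The third, 1372823_at, was 7.56 to 7.80 (median 7.73) and 7.89, 7.47, 7.75, 7.88 and 7.81, a difference of 0.05 ± 0.09 (SE) (adjusted p = 0.726). Neither of these passed the test, and the 95% interval of 1370171_at, -0.52 to 0.09, includes 0.

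Hnrnpa1 on 1387872_at was 7.64 to 7.99 (median 7.76) and 7.91, 7.92, 7.80, 8.08 and 8.01, a difference of 0.16 ± 0.08 (SE) (adjusted p = 0.174). On 1375612_at it was 7.39 to 7.84 (median 7.59) and 7.76, 7.47, 7.33, 7.43 and 7.53, a difference of -0.09 ± 0.10 (SE) (adjusted p = 0.546). Hnrnpa1 has many processed copies in rodent genomes, and probe sets may share sequence with them, so values of this gene are uncertain to that extent. Srsf2 on 1371839_at was 7.39 to 7.64 (median 7.56) and 7.46, 7.48, 7.57, 7.54 and 7.40, a difference of -0.05 ± 0.07 (SE) (adjusted p = 0.620) with fully overlapping groups. Hnrnpa3, a relative of Hnrnpa1, had 4 probe sets with differences of -0.11, -0.03, 0.10 and 0.13. For 1370872_at its values were 8.12 to 8.71 (median 8.53) and 8.02, 8.37, 8.71, 8.46 and 8.36, and for 1370871_at they were 8.57 to 8.79 (median 8.74) and 8.49, 8.76, 8.61, 8.78 and 8.83. For 1374405_at they were 8.70 to 8.85 (median 8.79) and 8.88, 8.90, 8.85, 8.92 and 8.87, and for 1388119_at 8.92 to 9.29 (median 9.14) and 9.35, 9.24, 9.05, 9.38 and 9.30. All 4 missed the threshold, and the ketogenic arrays overlapped the controls on each.

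Srsf6, an SR protein known as SRp55, was 8.28 to 8.49 (median 8.36) and 8.48, 8.55, 8.47, 8.57 and 8.47 on 1372075_at (0.14 ± 0.06 (SE); adjusted p = 0.116) and 6.93 to 7.26 (median 7.10) and 7.15, 6.82, 6.79, 7.18 and 7.26 on 1371999_at (-0.04 ± 0.10 (SE); adjusted p = 0.816). Prpf18, a factor of the later catalytic step, was 7.37 to 7.89 (median 7.57) and 7.55, 7.62, 7.72, 7.58 and 7.48 on 1399021_at, where the difference was 0.00 ± 0.09 (SE) (adjusted p = 0.983). On 1388005_at, with a mean near the lowest tested level, Prpf18 was 4.61 to 5.73 (median 5.21) and 5.48, 4.70, 5.66, 5.23 and 4.78 (-0.08 ± 0.24 (SE); adjusted p = 0.839). All 4 of these probe sets missed the threshold. The signs of such small differences move with the scaling: on the values as deposited the sign also differed for Hnrnpa2b1 and no longer for Prpf18, and after centring on the 75th percentile 7 genes had probe sets of unlike sign, Hnrnpa2b1 in addition. Where each probe set lies in its transcripts was not analysed here.

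**Figure D3:**
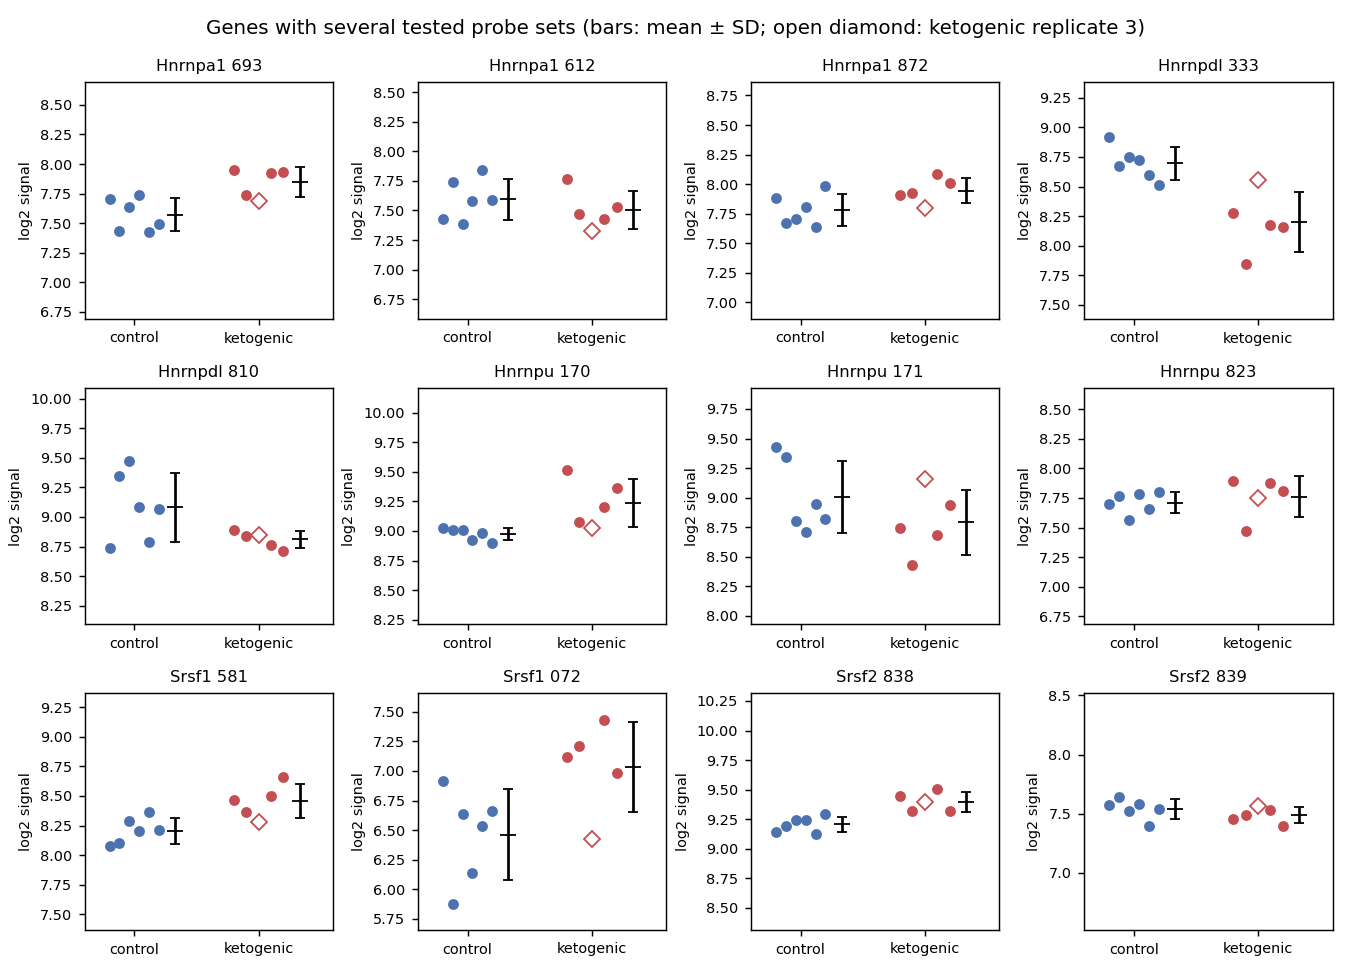
Log2 signal (vertical axis) by array and diet for the tested probe sets of Hnrnpa1, Hnrnpdl, Hnrnpu, Srsf1 and Srsf2. These are the 5 genes with several tested probe sets of which 1 is called. Bars are group means and SDs, and ketogenic replicate 3 is an open diamond. Panel names give the gene and the last 3 digits of the probe set ID; 1 probe set at most is called in each gene.

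Array by array, the members that rose did so unevenly. The mean of the 10, each taken as its deviation from its own control mean, was -0.11 to 0.08 in the control arrays and 0.12 to 0.54 in the ketogenic arrays; the choice of members fixes that these groups separate. Over all 63 tested members the median deviation was -0.02 to 0.03 and 0.04 to 0.11. Ketogenic replicate 3 was the ketogenic array with the smallest shift in 9 of the 11 called members, and ketogenic replicate 5 in the other 2, Prpf3 and Srsf2. Over all 1962 called probe sets ketogenic replicate 3 was the smallest in 60.2%, so that array stood nearest to the controls over the whole table too. Without it 16 members rose (13.3% of all probe sets did) and 1 fell (13.3% of all). After each group's mean was removed, the 10 members that rose had a median Pearson r of 0.38 over their 45 pairs and 11 arrays, from -0.22 (Prpf3 with Srsf1) to 0.71 (Hnrnpa1 with Hnrnpd, and Hnrnpl with Snrpd3). All pairs share the same arrays and their quality, and over all pairs of the 63 tested members the median r was 0.03. The 10 were picked by their rise in these same arrays, and other probe sets that rose were not compared. The r of 0.38 therefore does not show that these members vary together more than other called probe sets.

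**Figure D4:**
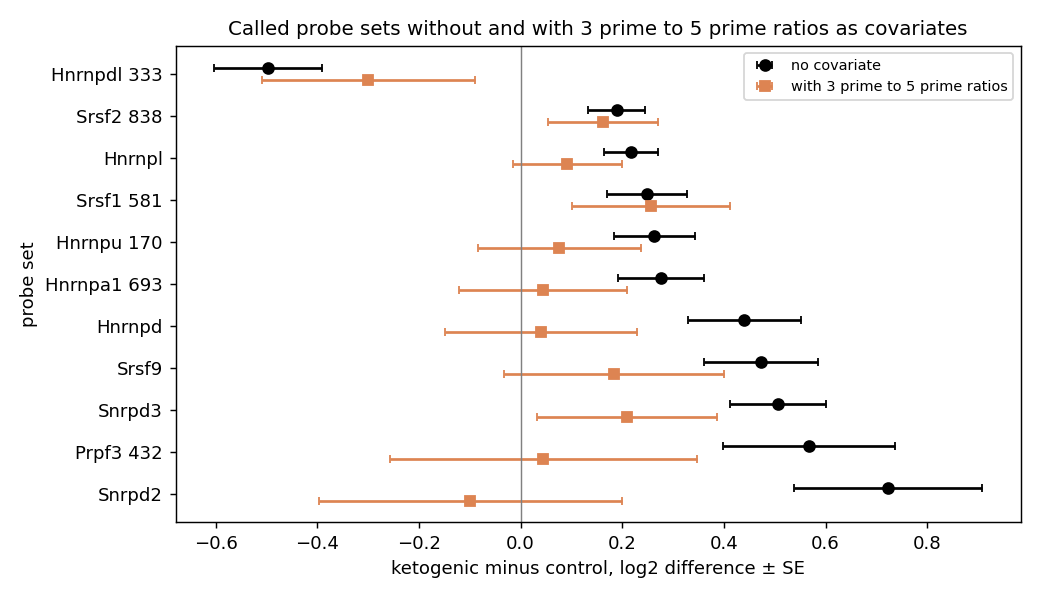
Difference between ketogenic and control diet (log2, horizontal axis, with SE bars) for the 11 called member probe sets, as fitted without covariates (circles) and with the control-gene ratios as covariates (squares). With the covariates Snrpd2 is at -0.10, Srsf1 at 0.26 and Hnrnpdl is at -0.30, and 0 of the 11 are called.

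With those covariates most differences of the called members were smaller. They were 0.05 for Prpf3, 0.18 for Srsf9, 0.04 for Hnrnpd, 0.04 for Hnrnpa1, 0.08 for Hnrnpu, 0.09 for Hnrnpl and 0.16 for Srsf2. For Srsf1 it was 0.26 ± 0.16 (SE) (adjusted p = 0.944), against 0.25 ± 0.08 (SE) without them. The standard error of every called member was larger with the covariates, as for Hnrnpd at 0.19, against 0.11 without them. Of 25 alternative settings, the call of Hnrnpdl held under 24, those of Hnrnpl, Snrpd3 and Srsf9 under 23 and those of Hnrnpd and Snrpd2 under 21. The call of Srsf2 held under 14, those of Hnrnpa1 and Hnrnpu under 12, that of Prpf3 under 12 of the 24 that gave it a value, and that of Srsf1 under 10. The setting at an adjusted p under 0.1 uses the main fit, so every call holds there by construction. With low probe sets also tested, Hnrnpu, Snrpd2, Srsf1, Prpf3 and Hnrnpa1 missed the threshold (adjusted p = 0.0513 to 0.0733). Without a variance trend Hnrnpu, Srsf1, Srsf2 and Hnrnpa1 missed it (adjusted p = 0.0520 to 0.0702).

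Splicing genes outside these prefixes were taken from 7 lists of 237 genes, of which 172 were on the array and 164 were tested. Of these, 32 rose and 3 fell, or 19.5% and 1.83%, against 8.85% and 8.04% of all genes; in all 21.3% were called, against 16.9%. Their median difference was 0.10, against -0.00 over all genes. In 20 every ketogenic array lay above every control, and in 0 every ketogenic array lay below (3.91% and 3.08% of all tested probe sets). The number called was 18 without ketogenic replicate 2, 18 without ketogenic replicate 4 and 54 without ketogenic replicate 3, and 0 with the 3 prime to 5 prime covariates. Over all tested probe sets the share called was 7.07%, 6.70%, 26.6% and 0.0504% under these settings, against 16.5%, so the whole array moved the same way. With those covariates 11 had an unadjusted p under 0.05. As among the members, calls were mostly upward. Each gene of the lists was taken by its tested probe set of the highest mean. The counts of each list below stand against the same 8.85% and 8.04% of all genes.

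The list of kinases, phosphatases and import factors of SR proteins had 7 of 18 genes higher and 1 lower, with a median of 0.26. Some of these calls rest on 1 of several tested probe sets. Son was called higher at 0.37, with -0.26 on its other probe set, and Scaf11 at 0.48, with 0.04 on its other. Srpk2 was called lower at -0.24, with 0.24 on its other. Clk1, a kinase that phosphorylates SR proteins, was 7.96 to 8.33 (median 8.19) on the control diet and 8.55, 8.58, 8.37, 8.59 and 8.68 on the ketogenic diet, a difference of 0.38 ± 0.08 (SE) (adjusted p = 0.00856). All 5 ketogenic arrays lay above the controls. The list of branch site and 3 prime splice site recognition had 5 of 15 higher and 1 lower, with a median of 0.17. U2af1l4, a relative of the small U2AF subunit that reads the 3 prime splice site, was 5.67 to 6.58 (median 6.23) and 7.06, 7.35, 6.67, 7.13 and 7.21 (0.84 ± 0.16 (SE); adjusted p = 0.00549). Ddx46, the helicase that acts as the U2 snRNP joins the branch site, was 5.85 to 6.40 (median 6.04) and 6.64, 6.62, 6.44, 6.96 and 6.82 (0.62 ± 0.12 (SE); adjusted p = 0.00626). Ddx39b, a helicase of U2 snRNP recruitment and mRNA export, was 8.87 to 9.03 (median 8.93) and 9.14, 9.22, 9.11, 9.23 and 9.16 (0.23 ± 0.05 (SE); adjusted p = 0.0135). For each of these 3 genes the groups did not overlap, and Ddx39b moved the least.

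Core snRNP, Lsm and associated proteins outside the prefixes had 7 of 28 higher and 0 lower, with a median of 0.13. Lsm3, of the ring on the U6 RNA, was 6.71 to 7.41 (median 6.89) and 7.59, 7.68, 7.72, 7.41 and 7.37 (0.63 ± 0.12 (SE); adjusted p = 0.00587). Control replicate 6 alone reached the ketogenic range. Snrnp27, a tri-snRNP protein, was 7.22 to 7.42 (median 7.38) and 7.66, 7.98, 7.58, 7.86 and 7.74 (0.41 ± 0.08 (SE); adjusted p = 0.00721). Dhx15, a helicase that takes spliceosomes apart, was 7.37 to 7.66 (median 7.49) and 7.73, 7.92, 7.80, 8.01 and 8.03 (0.37 ± 0.08 (SE); adjusted p = 0.0106). Both of these genes had every ketogenic array above every control.

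The Prp19 complex, catalytic step and exon junction list had 8 of 39 higher and 0 lower, with a median of 0.12. Ppie, a cyclophilin of the activated spliceosome, was 4.41 to 6.38 (median 5.39) and 6.34, 6.58, 6.89, 6.76 and 6.89 (1.39 ± 0.28 (SE); adjusted p = 0.00708). Its control values straddled the lowest tested mean of 5.17, and 1 control array overlapped the ketogenic range. Srrt, which links the cap-binding complex to RNA processing, was 6.30 to 7.05 (median 6.69) and 7.76, 7.38, 7.22, 7.73 and 7.52 (0.82 ± 0.13 (SE); adjusted p = 0.00270). Smu1, a spliceosome protein needed for activation, was 5.86 to 6.42 (median 6.20) and 7.06, 6.98, 6.58, 7.27 and 6.92 (0.79 ± 0.13 (SE); adjusted p = 0.00382). Neither gene had overlapping groups. Thoc1, of the THO complex that couples splicing to export, was 5.97 to 6.50 (median 6.20) and 7.08, 6.99, 6.68, 6.60 and 6.86 (0.61 ± 0.12 (SE); adjusted p = 0.00602). Ctnnbl1, a partner of the Prp19 complex, was 6.42 to 6.75 (median 6.58) and 7.02, 7.25, 7.01, 7.30 and 6.85 (0.51 ± 0.10 (SE); adjusted p = 0.00616). These 2 genes also had every ketogenic array above every control.

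Other RNA-binding proteins found with hnRNP complexes had 4 of 24 higher and 0 lower, with a median of 0.10. Sltm, a nuclear protein of the scaffold attachment family, was 7.72 to 8.18 (median 8.03) and 8.32, 8.48, 8.32, 8.36 and 8.19 (0.35 ± 0.09 (SE); adjusted p = 0.0177), and its call was lost without ketogenic replicate 2 (adjusted p = 0.0518). The neuronal and tissue regulators of alternative splicing had 1 of 26 higher and 1 lower, with a median of 0.01. The 1 higher was Tra2b, at 0.25 on the probe set used and -0.02 on its other. Rbm38, an RNA-binding protein that is also prominent in red cell development, fell: it was 6.46 to 6.85 (median 6.76) and 5.93, 6.04, 6.51, 6.19 and 6.31 (-0.49 ± 0.12 (SE); adjusted p = 0.0181), and its call was lost without ketogenic replicate 2 (adjusted p = 0.0515). Beside it stand the blood cell markers, all 4 of which fell; their part in the value of Rbm38 was not tested. Of 14 snRNP assembly factors 0 were called in either direction by limma, against 16.9% of all genes, and the median was -0.01. Of the 14, 3 had an unadjusted p under 0.05, against 72 of the 164 tested genes of all 7 lists.

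**Figure D5:**
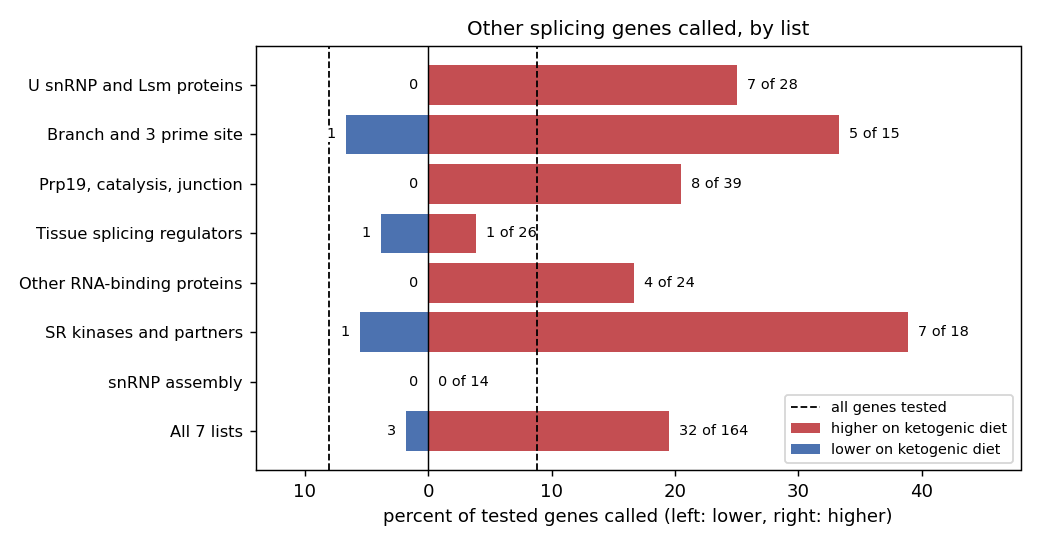
Percent of tested genes called higher (right) or lower (left) on the ketogenic diet in each of 7 lists of splicing genes outside the member prefixes (vertical axis), with the number called beside each bar. Dashed lines mark 8.85% and 8.04%, the shares of all 8397 genes; the SR kinase list (7 of 18 higher) and the branch site list (5 of 15) lie furthest to the right.

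Upstream sequences were found in RefSeq for 48 of the 49 member genes; the missing one is Sf3b2. Over the 250 bases before the start, searched on both strands, the ETS-type letters were in 12 of 48 member genes (25%, against 7.74% of 27457 genes). The CCAAT box was in 25 (52.1%, against 34.3%) and the GC box in 27 (56.2%, against 32.4%). The CRE-type letters were in 9 (18.8%, against 7.25%) and the TATA box in 4 (8.33%, against 13.1%). The member stretches were richer in G and C (median 58.4%, against 52%), and base composition was not matched. Of the 11 genes with a called probe set, 1 held the ETS-type letters, 6 a CCAAT box, 7 a GC box, 1 the CRE-type letters and 2 a TATA box. These motifs do not overlap one another in their letters, and a match is a description of the window, not a site.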

How the data were processed

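One intensity per probe set and array was used as the authors deposited it; how it was summarised and scaled, and with what software, is not given in the sources used here, and the 2% trimmed mean of each array is 150. Array medians spanned 0.24 in log2, so the arrays were quantile normalised, floored at the 5th percentile of all values (a signal of 5.02) and log2 transformed. Quantile normalisation removes overall shifts between arrays. The test left out 57 control probe sets and those in the lowest 25% by mean. limma 3.58.1 (R 4.3.3; lmFit, eBayes with a variance trend, two-sided) compared 5 ketogenic with 6 control arrays, with Benjamini-Hochberg adjustment over 11899 probe sets at 0.05. The number of arrays limits the precision. Symbols came from the platform annotation, 12789 probe sets having 1, 312 several and 2771 none; they were updated by gene ID through the RefSeq table of GRCr8 (12754 matched). Array measures were compared by exact permutation tests.

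Replicate numbers are shared between the diets, and no label used here says that they pair the arrays. The main fit did not treat them as pairs. On simulated data of this design, 65 of 100 probe sets changed by 0.5 and 96 of 100 changed by 1 were recovered, with 13 false among 174 calls. The simulated noise was independent between probe sets and arrays. Shifts that many probe sets share were not simulated, so these rates may not hold for the real arrays.

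The members and the lists were chosen with earlier results of these data known. Values are given for every called member, every member with non-overlapping groups, every gene with several tested probe sets and a call or unlike signs, the member of highest mean in each role, members called under 3 or more alternatives only, and, of the other splicing genes, the 12 called with the smallest p and the called gene with the smallest p of each list; Snrpa, Srsf10, Hnrnpc and further members were added after their values were seen. Alternatives were scaling, filter, floor, variance model, array weights, covariates, the replicate block and leaving out each array. 1 covariate was chosen after seeing the data.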

Additional observations from a re-analysis of the deposited data

Results flagged for a closer look

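In 9 of 154 groups of arrays tested (77 probe sets on each diet: the 63 tested members and the 14 named other splicing genes) 1 array lay far from the others of its group by Dixon's criterion; chance alone would give about 1 in 20, or 7.7. Of the 9, 5 concerned ketogenic replicate 3. It was low for Hnrnpd (7.85, against 8.36 to 8.50 in the other ketogenic arrays), for Hnrnpr, an hnRNP of neuronal mRNA transport (7.79, against 8.13 to 8.23), and for Snrpd2 (7.50, against 8.14 to 8.37). It was high for Prpf19 (8.79, against 8.47 to 8.53) and for Sf3b4, an SF3B subunit (9.15, against 8.15 to 8.31). Ketogenic replicate 5 was high for Hnrnph3 (6.51, against 6.18 to 6.26). Control replicate 6 was low for Snrpe (8.36, against 8.58 to 8.66) and high for Lsm3 (7.41, against 6.71 to 6.92). Control replicate 4 was low for Snrpn (4.34, against 6.41 to 6.92).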

How the results depend on the processing

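Of 274 values of the called members under alternatives, 195 kept direction and call, 78 kept direction only and 1 reversed: Snrpd2 at -0.10 with the 3 prime to 5 prime covariates. Of 348 values of the named other splicing genes, 322 kept both and 26 direction only. The setting at an adjusted p under 0.1 uses the main fit, so both are kept there by construction. Changes of only the filter or the variance trend leave a difference as it was, so its direction is fixed there. The number of members that rose (10) was 5 with no filter, 6 without a variance trend, 16 with array weights, 18 at an adjusted p under 0.1, 0 with the 3 prime to 5 prime covariates, 1 with the hybridisation controls as a covariate (chosen after seeing the data), and 3 to 16 with 1 array left out. In either direction 8.70% of members and 8.84% of all probe sets were called with no filter, 11.1% and 13.5% without a variance trend, 27.0% and 26.4% with array weights, and 30.2% and 25.8% at an adjusted p under 0.1. The number that fell (1) was 0 with the 3 prime to 5 prime covariates and 1 to 2 with 1 array left out (2 without control replicate 1, the further one being Hnrnpdl on 1372810_at). The called other splicing genes (35) numbered 54 with array weights, 54 at an adjusted p under 0.1, 0 and 8 with those covariates, and 18 to 54 with 1 array left out. The members' median difference (0.05) was 0.0875 with the hybridisation covariate and 0.020 to 0.0803 with 1 array left out (0.020 without ketogenic replicate 4, 0.0803 without ketogenic replicate 1). The causes of these changes were not tested. With the replicate block 10 members rose, 1 fell and 35 other splicing genes were called, the same counts as without it. However, Hnrnpu, Srsf1 and Hnrnpa1 were no longer called by limma (adjusted p = 0.0528 to 0.0649). In a check of pairing, samples of the same number correlated at 0.01 to 0.08 over 5 pairs, and 2 of 5 correlated best with their own number. So few pairs cannot settle whether the arrays are paired. The correlation in that check was not taken on the signals themselves, which correlated at 0.933 to 0.964 between arrays of different diets. Over all probe sets 52.3% of calls were upward, against 38.3% on the values as deposited, where 13 members rose and 1 fell; after centring on the 75th percentile 14 rose and 1 fell. Of the 52 uncalled members 39 were called under 0 alternatives. Probe sets near the floor, such as those of Srsf10 and Snrpa, are limited by signal over background.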

Other observations

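A further 8 tested probe sets carry several gene symbols, at least 1 of them with one of the 7 prefixes, and were not counted as members because their gene cannot be told apart. Their differences between ketogenic and control diet lay between -0.24 and 0.08 on the log2 scale, and 0 of them were called by limma (adjusted p = 0.0687 to 0.849).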
